A study of Mus musculus with 4 samples.

Results

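The cells described here were 659 of the 11224 cell barcodes kept in 4 single-cell libraries, and they were chosen as conventional type 2 dendritic cells (cDC2) by their own counts. A kept barcode had at least 200 detected genes and at most 10% of its unique molecular identifiers (UMIs, each standing for 1 counted transcript) from mitochondrial genes. A member had at least 2 UMIs of Cd209a, a lectin of type 2 dendritic cells, and none of Xcr1 or Clec9a, which mark type 1 dendritic cells (cDC1). It had at most 1 UMI of Siglech, a gene of plasmacytoid dendritic cells, at most 1 of the CD3 genes Cd3d, Cd3e and Cd3g together, and at most 5 of the macrophage genes C1qa, C1qb and C1qc together. Barcodes with both Ccr7 and Fscn1, the pair that marks mature migratory dendritic cells, were left out. These genes therefore describe the members and are not results.

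The cells came from subcutaneous B16F10-OVA tumours, a mouse melanoma line that carries the model antigen ovalbumin. Each host received 1000000 tumour cells. The hosts were wild-type mice or miR-155 TCKO mice, in which a conditional knockout removes miR-155 from T cells. The labels give the strain C57BL/6 (WT) for all 4 groups, and the Cre driver of the knockout is not given in the sources used here. Tumours were taken at day 9 or day 12, the tumours of more than 4 mice were pooled in each group, and live CD45-positive cells were sorted. Each genotype and day is therefore 1 library, with no replicate. A difference at a single day has no test, its intervals cover counting error only, and the day cannot be told apart from the preparation run. Values in the text follow the order wild-type day 9, knockout day 9, wild-type day 12 and knockout day 12 unless stated. The members numbered 60, 228, 237 and 134 in that order.

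Conventional type 2 dendritic cells take up antigen in tissue, carry it to lymph nodes and present it on MHC class II to CD4 T cells. They depend on the growth factor receptor Flt3 and the transcription factor Irf4, and in mice they share the lectins Cd209a, Clec10a and Mgl2 with monocyte-derived cells, so the markers of both kinds overlap in inflamed tissue and tumours. Interferons from T cells, natural killer (NK) cells and dendritic cells change their expression of chemokines, guanylate-binding proteins and antigen-presentation genes. miR-155 is a microRNA that activated lymphocytes and myeloid cells make, and it is needed for full T cell effector function.

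The microRNA deleted in the T cells of the knockout hosts is shown with its seed, bases 2 to 8, in capitals. RefSeq places it on the plus strand of GRCm38.p6 at chr16:84714143-84714165, and it is 23 bases long.
mmu-miR-155-5p: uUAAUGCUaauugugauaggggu
Mir155hg, its host transcript, was at 7.70 and 6.42 CPM (UMIs per 1000000 UMIs of the same class) in wild-type T cells at day 9 and day 12. In knockout T cells it was at 0.375 CPM, from 2 UMIs, and at 0. The part of the gene that the knockout removes is not given in the sources used here. In the members Mir155hg was at 0, 1.23, 0.389 and 2.79 CPM, so the deletion could not be read in these cells either way.

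The members had a median of 10106, 9483, 10618 and 9652 UMIs, and in sum 648873, 2431178, 2573887 and 1431610 UMIs. Their median mitochondrial share lay between 1.43% and 1.83%. In order, 0, 9, 6 and 3 members were among the highest doublet scores of their libraries. They were kept. No member barcode occurred in more than 1 library. RNA of myeloid cells was present in barcodes of other cells: Lyz2, the macrophage lysozyme, reached 300, 2467, 1347 and 1712 CPM in barcodes chosen as T cells by at least 3 UMIs of CD3 genes. It was lowest in the wild-type library of day 9. The level in T cells of the same library is therefore given beside the main myeloid genes below, and its part in the differences between members was not tested.

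The markers supported the cDC2 label in part. Clec10a, a galactose-binding lectin, was detected in 85%, 71.9%, 85.2% and 84.3% of members, at 962, 534, 565 and 704 CPM, against 5.92, 34.0, 8.37 and 15.7 CPM in T cells. Mgl2, a related lectin, was detected in 46.7%, 28.1%, 78.1% and 68.7% of members, at 504, 308, 1019 and 1431 CPM. Both were far above their level in T cells in each library.

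Flt3 was lower in the members than in cDC1 in all 4 libraries. It was at 55.5, 64.2, 10.5 and 30.0 CPM in members and at 189, 149, 104 and 130 CPM in barcodes with at least 2 UMIs of Xcr1 and Clec9a. In monocytes, chosen by Ly6c2 and Lyz2 and by the absence of Flt3, it was 0 by that choice. Zbtb46, a transcription factor of conventional dendritic cells, was at 23.1, 21.8, 20.6 and 11.9 CPM in the members. Irf4 was at 21.6, 21.0, 35.4 and 27.9 CPM. H2-Aa, an MHC class II chain, was at 11927, 8731, 10434 and 12812 CPM in the members and at 12027, 10781, 10566 and 13146 CPM in cDC1.

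Monocyte genes were also present. Fcgr1, the high-affinity IgG receptor of monocyte-derived cells, was detected in 51.7%, 57.9%, 51.1% and 52.2% of members, and in T cells in 3.39%, 7.37%, 8.04% and 5.95%. Ly6c2 was detected in 61.7%, 66.2%, 61.2% and 40.3% of members, but it is not particular to monocytes: T cells had it at 1658, 1463, 1526 and 1376 CPM against 616, 854, 541 and 522 CPM in members. Of the genes listed for the Esam-high subset of cDC2, Esam and Mmp9 had 0 UMIs in all 4 libraries and Clec4a4 at most 2. Cd81, also on that list, had 1, 15, 38 and 35 UMIs, so the list as a whole was not absent. The members are called Cd209a-positive cells or members from here on.

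**Figure D1:**
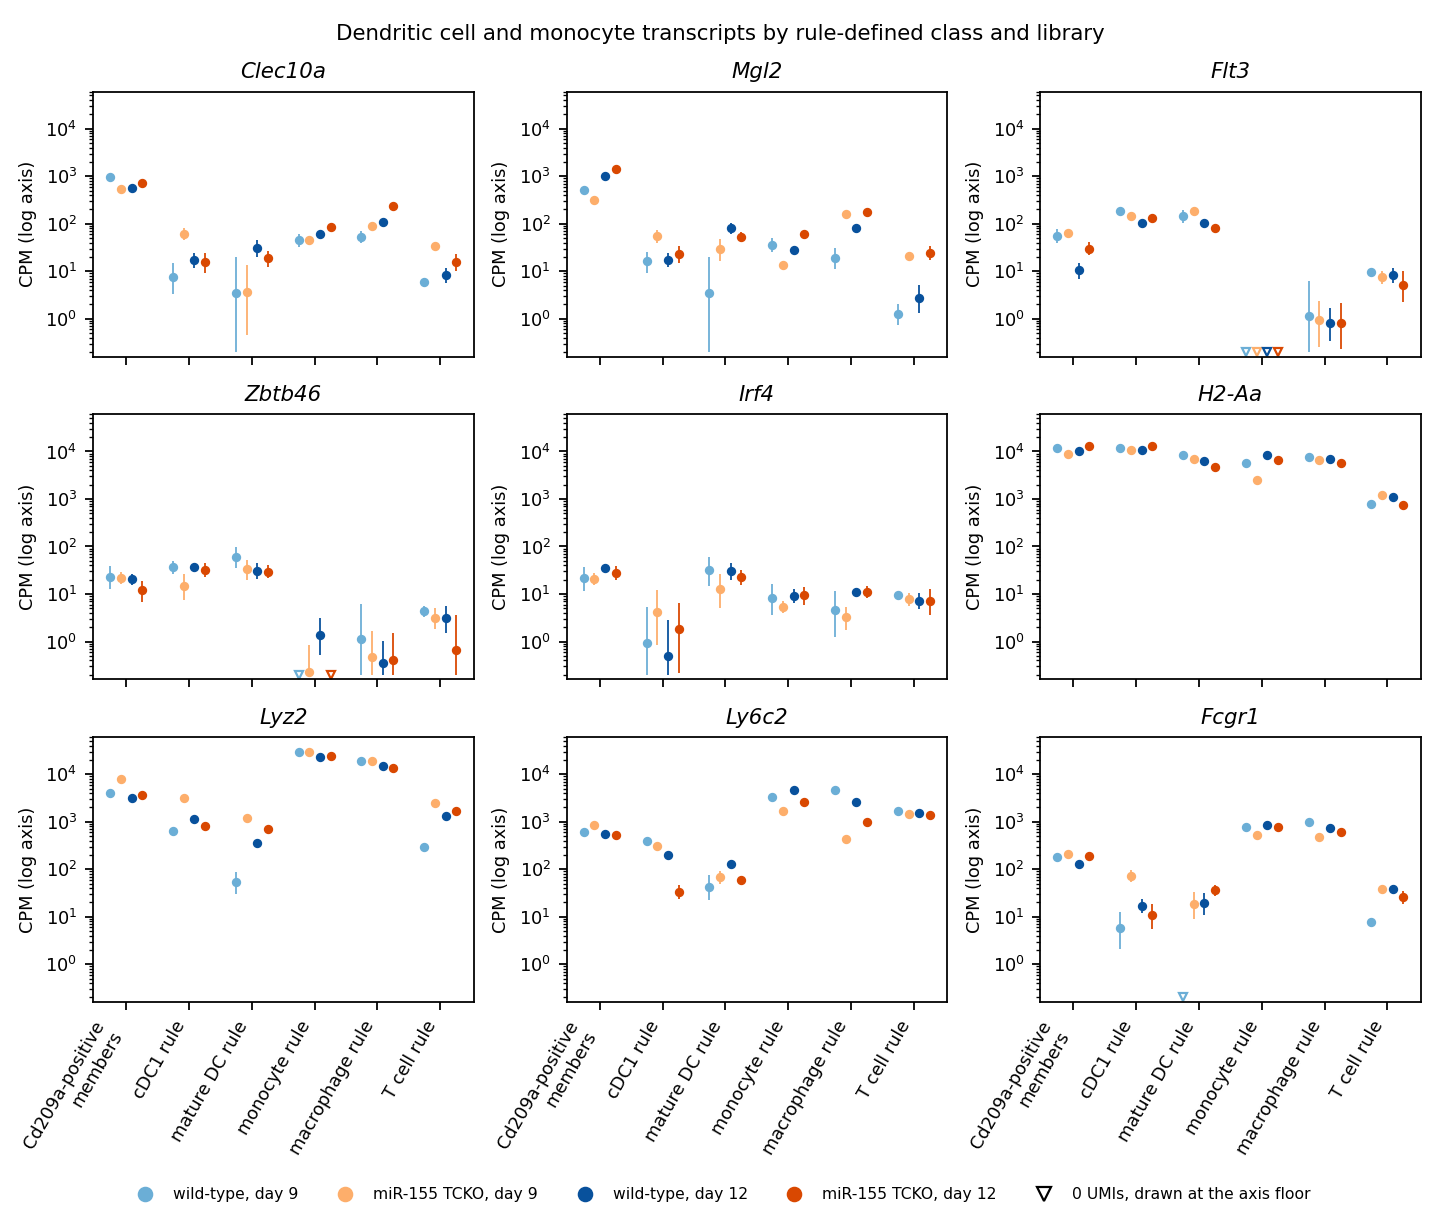
Dendritic cell and monocyte transcripts in CPM on a log axis, by rule-defined class and library, with 95% Poisson intervals for counting error. Points are libraries, and triangles at the axis floor stand for 0 UMIs. Clec10a and Mgl2 are highest in the Cd209a-positive members, Flt3 is highest in cDC1 and mature dendritic cells, and Lyz2 in the members lies between 3191 and 7774 CPM, below its level in monocytes.

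The threshold on Cd209a divided a continuum. The 201 barcodes with 1 UMI, otherwise within the rule, lay just outside it and had Clec10a at 194 CPM, Mgl2 at 150 CPM and Lyz2 at 15756 CPM. The 71 members with exactly 2 UMIs lay just inside and had Clec10a at 320, Mgl2 at 393 and Lyz2 at 7268 CPM. Among the 235 members with 20 or more UMIs, Clec10a was at 864, Mgl2 at 1172 and Lyz2 at 2818 CPM. The median member had 12, 9, 14 and 17.5 UMIs of Cd209a, and the highest member 49, 68, 100 and 149.

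Clustered among themselves, the members formed 12 groups. The description of these groups has no test, because the same counts made them. Group 1 (93 members) and group 2 (39 members) were led by interferon-induced genes such as Ifit3, Isg20, Ifit1 and Ifit2. Group 3 (51 members) was led by Hpgd, Cx3cr1, Flt3 and Cd7. Group 5, the largest with 110 members, was led by the decoy interleukin-1 receptor Il1r2, Ifitm1 and Il1b. Group 6 (28 members) was led by the interferon-induced chemokines Cxcl10 and Cxcl9, and group 7 (28 members) by the division genes Birc5, Stmn1 and Top2a. Group 8 (45 members) was led by Fcrls, Retnla and Ccl17, and group 10 (91 members) by Mgl2, Ear2 and the mannose receptor Mrc1.

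The other four groups were led by genes of another cell type, counted as at least 3 of that type's markers among the 20 leading genes. Group 4 (46 members) was led by the monocyte genes Hp, Mgst1, F13a1 and Lyz2. Group 12 (43 members) was led by Cxcl3, Lpl, Ccl24 and Chil3 and held markers of macrophages and monocyte-derived cells. Group 11 (62 members) was led by Ly6d, Cox6a2 and Ccr9, genes of plasmacytoid dendritic cells. Group 9 (23 members) was led by the granzymes Gzmc and Gzma and by Xcl1, genes of NK cells, and 14 of its 23 members had high doublet scores. These 4 groups held 14 of 60 members (23.3%) in wild-type day 9, 114 of 228 (50%) in knockout day 9, 22 of 237 (9.28%) in wild-type day 12 and 24 of 134 (17.9%) in knockout day 12. The summed level of 16 monocyte markers was 11975, 15245, 9563 and 9908 CPM in all members and 7860, 6807, 8078 and 8165 CPM without the 4 groups. That of 20 macrophage markers was 1043, 1641, 990 and 1218 CPM, and 729, 886, 844 and 1025 CPM without them. For 11 plasmacytoid dendritic cell markers it was 1245, 1749, 974 and 1266 CPM, and 930, 600, 912 and 948 CPM without them. None of these markers was at 0 over all members, and results below are also given without the 4 groups where that changes a call, a sign or a count or median by over 1.5 times. Without them 485 members remain.

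**Figure D2:**
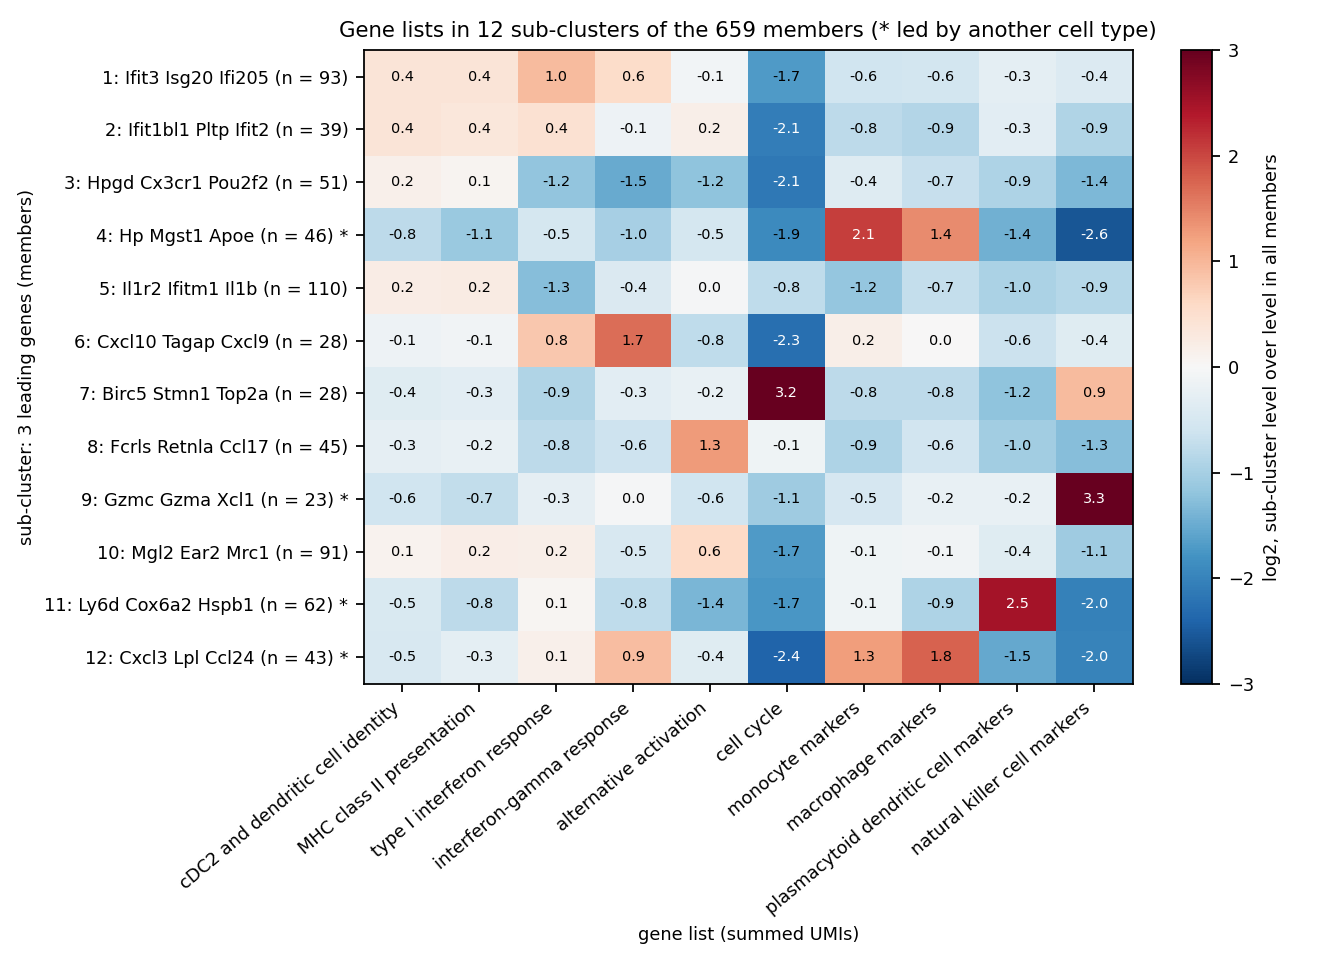
Summed level of 10 gene lists (columns) in the 12 groups of members (rows, with their 3 leading genes and size), as log2 over the level in all 659 members. Asterisks mark the 4 groups led by genes of another cell type; interferon lists are high in groups 1 and 6, cell cycle genes in group 7, and markers of other cell types in groups 4, 9, 11 and 12.

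The share of Cd209a-positive cells among all kept barcodes was lowest in wild-type tumours at day 9. They made up 3.38% of kept barcodes there (95% Clopper-Pearson interval 2.59% to 4.33%), 6.10% in knockout day 9 (5.35% to 6.92%), 6.45% in wild-type day 12 (5.68% to 7.30%) and 6.58% in knockout day 12 (5.54% to 7.75%). The first interval did not overlap the others, and the other intervals overlapped each other. Without the 4 groups led by other cell types the shares were 2.59% (1.90% to 3.44%), 3.05% (2.52% to 3.65%), 5.85% (5.12% to 6.66%) and 5.40% (4.46% to 6.48%), and both day 9 intervals lay below both day 12 intervals. Over all members, the knockout share was 1.81-fold the wild-type share at day 9 (95% exact conditional interval 1.35 to 2.44) and 1.02-fold at day 12 (0.819 to 1.27). In wild-type tumours the share at day 12 was 1.91-fold that at day 9 (1.43 to 2.58), and 2.26-fold (1.64 to 3.18) without the 4 groups. In knockout tumours it was 1.08-fold (0.865 to 1.34), and 1.77-fold (1.35 to 2.32) without them. The day 9 difference and the wild-type difference between days depended on the T cells in the denominator. Among barcodes with at most 1 CD3 UMI the shares were 8.65%, 8.33%, 7.96% and 7.72%. There the share at day 12 was 0.921-fold that at day 9 in wild-type (0.691 to 1.24) and 0.927-fold in knockout (0.743 to 1.15). Day ratios without the 4 groups were not computed for these barcodes. The knockout ratios among them were 0.964 (0.722 to 1.30) and 0.970 (0.779 to 1.20). Without the 4 groups led by other cell types the ratio over all kept barcodes was 1.18 at day 9 (0.830 to 1.70) and 0.923 at day 12 (0.727 to 1.17). Among the dendritic cells counted here, that is members, cDC1 and mature dendritic cells together, the members were 36.4%, 68.1%, 47.7% and 36.0%. Equal numbers of sorted cells were loaded, so a share says nothing of the number of cells per tumour.

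Between genotypes, Cd209a-positive cells differed in interleukin-1 genes and some chemokines, which were higher in knockout tumours, and in interferon-gamma-induced and division genes, whose list medians were lower on both days. Type I interferon genes were lower at day 9. Across 8181 genes, edgeR's quasi-likelihood test of a knockout effect common to both days (4 library sums, day as a term, 1 residual degree of freedom, Benjamini-Hochberg adjusted p of at most 0.05) called 15 genes higher and 8 lower. That is 0.183% and 0.0978% of the genes tested, and 624 genes had an unadjusted p under 0.05. Without the 4 groups led by other cell types the same test called 8 higher and 3 lower. At single days a gene counted as measured if both libraries together held at least 20 of its UMIs. Of the genes measured, 16.9% were at least 1.5-fold higher and 12.8% at least 1.5-fold lower in knockout at day 9, and 8.29% and 9.97% at day 12. The median log2 ratio over all measured genes was 0.06 at day 9 and -0.02 at day 12, after adding 0.5 UMIs to each count.

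The interleukin-1 genes were higher in knockout tumours on both days. Il1b, the inflammatory cytokine interleukin-1 beta, was at 18.5 CPM in wild-type and 362 CPM in knockout members at day 9, against 47.0 and 169 CPM at day 12. Both knockout libraries were above both wild-type libraries. It was 19.6-fold higher at day 9 (11.1 to 38.0) and 3.60-fold at day 12 (2.88 to 4.51), and it rose by 2.71 on the log2 scale (SE 0.41) over both days (edgeR quasi-likelihood test, adjusted p = 0.0364, and 0.0405 without the 4 groups). A UMI of Il1b was found in 5 of 60, 99 of 228, 42 of 237 and 44 of 134 members. In T cells of the same libraries Il1b was at 5.40, 132, 19 and 91.1 CPM, so it moved there in the same order. Group 5, led by Il1r2 and Il1b, held 4 of 60, 53 of 228, 21 of 237 and 32 of 134 members. Because the same genes made the group, a different mixture of members and a different level within like members cannot be told apart here.

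Il1rn, which encodes the interleukin-1 receptor antagonist, was at 3.08, 38.7, 7.77 and 34.2 CPM, the first value from 2 UMIs. It rose by 2.48 on the log2 scale (SE 0.37, edgeR quasi-likelihood test, adjusted p = 0.0364), and the adjusted p was 0.0588 without the 4 groups. In T cells it was at 2.67, 18.6, 3.35 and 11.8 CPM. Il1r2, the decoy receptor that binds interleukin-1 without signalling, was at 23.1, 114, 54.4 and 138 CPM in members. It rose by 1.67 (SE 0.24, edgeR quasi-likelihood test, adjusted p = 0.0364, and 0.0269 without the 4 groups). In T cells it was at 34.9, 65.7, 9.21 and 11.1 CPM, above its level in the members of wild-type day 9 and below it in the other libraries. Il1r2 is also 1 of 10 genes on the list of neutrophil markers, whose summed level was 29.3, 139, 64.1 and 152 CPM. Without the 4 groups the sum was 29.3, 206, 65.2 and 180 CPM, and Il1r2 was at 29.3, 202, 60 and 166 CPM. Il1r2 itself made up most of the sum in every library, so the sum is no separate sign of neutrophil RNA. Ly6g, Camp and Ngp of that list were at 0 in the members, and the part of neutrophil RNA in the result was not tested. An agonist, its antagonist and its decoy receptor thus all passed the test.

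Other cytokines gave few counts. Il12a, Il12b, Il23a, Il6, Il10 and Il1a had at most 2 UMIs in any library, so no difference in them was detectable at this depth. Tnf, tumour necrosis factor, was at 46.2, 30.8, 9.71 and 13.3 CPM and Osm, oncostatin M, at 20, 63.8, 9.71 and 19.6 CPM. Neither passed edgeR's quasi-likelihood test between genotypes (adjusted p = 0.951 and 0.211). Of the 12 cytokine genes measured at day 9, 5 were at least 1.5-fold higher and 3 lower in knockout, and the list's median log2 ratio was 0.24. In the set without the 4 groups, 3 of 10 were higher and 3 lower.

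Chemokine genes were higher in knockout members at day 9, and this was not so at day 12. At day 9, 14 of 20 measured chemokine and receptor genes were at least 1.5-fold higher and 1 was lower, and the list's median log2 ratio was 1.72 against 0.06 over all genes. At day 12, 5 of 20 were higher and 4 lower, with a median of 0.08. Leaving out the 4 groups, the medians were 1.04 and 0.05. The difference between the days was not tested.

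Cxcl10, which draws CXCR3-bearing T cells and NK cells, passed the test over both days. It was at 183 CPM in wild-type and 916 CPM in the knockout library at day 9, against 103 and 230 CPM at day 12. It rose by 1.72 (SE 0.26, edgeR quasi-likelihood test, adjusted p = 0.0364, and 0.0324 without the 4 groups). In T cells it was at 27.6, 102, 52.7 and 64.2 CPM. It was found in 17 of 60, 70 of 228, 49 of 237 and 34 of 134 members. The share of members with a UMI thus differed less than the level. Group 6, led by Cxcl10 and Cxcl9, held 1 of 60, 23 of 228, 1 of 237 and 3 of 134 members. Cxcl10 was at 4545 CPM in that group and at 257 CPM in the other members. The member with the most Cxcl10 held 29.4%, 6.87%, 16.3% and 30.7% of the UMIs of this gene. The part of group 6 and of single members in the rise was not tested.

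Ccr1, a receptor for inflammatory CC chemokines, was at 29.3, 185, 38.1 and 103 CPM. It rose by 1.91 (SE 0.27, edgeR quasi-likelihood test, adjusted p = 0.0364, and 0.0401 without the 4 groups), with 6.74, 37.5, 9.49 and 19 CPM in T cells. Cxcl9, the other CXCR3 ligand of the list, was at 186 and 471 CPM at day 9, against 147 and 136 CPM at day 12, and did not pass (adjusted p = 0.698). T cells had it at 8.59, 71.5, 8.37 and 3.93 CPM. Ccl17, which draws CCR4-bearing T cells, was at 9.25, 276, 322 and 491 CPM, lowest in wild-type day 9, where only 3 of 60 members had a UMI. Its day 9 ratio was 29.9 (13.7 to 81.7) and its day 12 ratio 1.52 (1.38 to 1.69), and it did not pass over both days (adjusted p = 0.530). In T cells Ccl17 was at 0.0740, 81.8, 9.77 and 18.4 CPM, also lowest in wild-type day 9 and highest in knockout day 9. Ccl2, which draws monocytes, was at 38.5, 220, 124 and 142 CPM in all members and at 9.77, 42.7, 112 and 88.3 CPM without the 4 groups.

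Ccl5, a chemokine of T cells, NK cells and, in these libraries, mature dendritic cells, was the list's gene that fell. It was at 410, 162, 355 and 59.4 CPM in members and at 6441, 3265, 5292 and 4045 CPM in T cells. Mature dendritic cells had it highest, at 20784, 14001, 13723 and 16633 CPM. The source of the Ccl5 counts in members was not tested. It fell by 1.94 on the log2 scale (SE 0.27, edgeR quasi-likelihood test, adjusted p = 0.0364, and 0.113 without the 4 groups). In wild-type day 12 a single member held 46% of its UMIs. Ccl24, called higher, had 0, 62, 7 and 39 UMIs and at most 4 UMIs in any library without the 4 groups, and 1 barcode held 47 of the 62 UMIs and another 34 of the 39. T cells had it at 1.11, 68.8, 2.79 and 0.655 CPM.

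**Figure D3:**
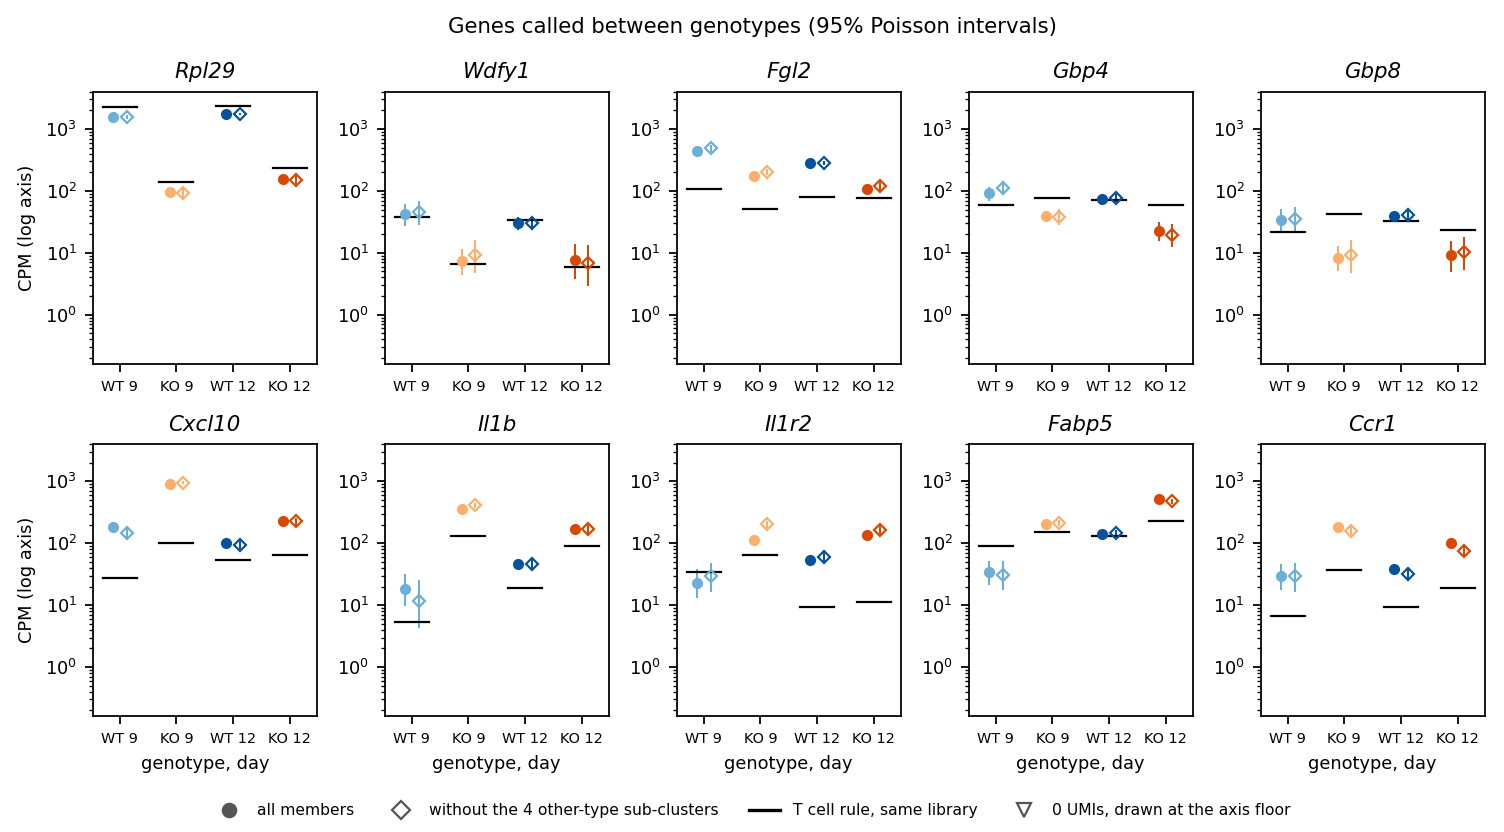
Levels in CPM on a log axis of 10 genes called between genotypes in each library (WT wild-type, KO knockout, 9 and 12 the days), with 95% Poisson intervals. Circles are all members, diamonds the 485 members without the 4 groups led by other cell types, and black lines the T cells of the same library. Both knockout circles lie above both wild-type circles for Cxcl10, Il1b, Il1r2, Fabp5 and Ccr1, and below them for the 5 genes of the upper row.

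The type I interferon genes were lower in knockout members at day 9 and not at day 12. Of 29 measured genes, 26 were at least 1.5-fold lower and none was higher at day 9, and the list's median log2 ratio was -1.28 (-1.22 without the 4 groups). At day 12, 2 were lower and 3 higher, with a median of 0.20. Isg15, a ubiquitin-like modifier, was at 957 and 346 CPM at day 9, against 578 and 641 CPM at day 12. Its ratio was 0.362 (0.326 to 0.402) at day 9 and 1.11 (1.02 to 1.21) at day 12. Ifit3, which binds viral RNA with its partners, was at 305, 92.5, 106 and 136 CPM, with ratios of 0.303 (0.249 to 0.369) and 1.28 (1.06 to 1.55). For both genes wild-type day 9 was thus the highest library and knockout day 9 the lowest. No gene of the list passed edgeR's quasi-likelihood test over both days, whose adjusted p was 0.731 for Isg15 and 0.775 for Ifit3. The libraries also differed in the groups that held their members: group 1 and group 2, led by these genes, held 13 and 17 of the 60 members of wild-type day 9, 5 and 0 of 228, 59 and 20 of 237, and 16 and 2 of 134. Because the same genes made the groups, a different mixture of members and a different level within like members cannot be told apart here. In T cells Isg15 was at 163, 130, 206 and 157 CPM.

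The interferon-gamma list was lower in knockout members on both days. At day 9, 13 of 28 measured genes were at least 1.5-fold lower and 4 higher, and the list's median log2 ratio was -0.53. At day 12, 12 of 29 were lower and 2 higher, with a median of -0.49. The medians were -0.46 and -0.49 without the 4 groups. The day 9 and day 12 ratios share no library, and the median over all genes was 0.06 and -0.02 in the members. Other classes had medians below 0 too, at -0.86 and -0.95 in cDC1 and -0.59 and -0.71 in mature dendritic cells. They were -0.66 and -0.97 in monocytes, -1.74 and -1.04 in macrophages and -0.12 and -0.47 in NK cells. T cells had 0.56 and -0.26. Of the 29 genes tested, edgeR called Gbp4 and Gbp8 lower and Cxcl10 higher, so the list did not move as one.

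Gbp4, a guanylate-binding GTPase of cell-intrinsic defence, was at 90.9, 38.7, 74.2 and 22.4 CPM. It fell by 1.48 on the log2 scale (SE 0.23, edgeR quasi-likelihood test, adjusted p = 0.0403, and 0.0234 without the 4 groups). Gbp8, a member of the same family, was at 33.9, 8.23, 38.9 and 9.08 CPM, and fell by 2.07 (SE 0.31, adjusted p = 0.0364, and 0.0728 without the 4 groups). In T cells neither gene was lower in both knockout libraries: Gbp4 was at 59.7, 76.9, 72.5 and 60.3 CPM and Gbp8 at 21.8, 43.1, 32.4 and 23.6 CPM. In cDC1, mature dendritic cells, monocytes and macrophages both genes were below wild-type of the same day in both knockout libraries. Monocytes had Gbp4 at 91.1, 44.4, 145 and 44.0 CPM and Gbp8 at 53.2, 10.9, 82.3 and 15.6 CPM. The guanylate-binding genes are a family of near-identical copies, so reads may have been split between them and single-gene values are uncertain. Gbp2 was at 384 and 476 CPM at day 9, against 336 and 128 CPM at day 12.

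To show what the interferon-induced genes share in sequence, 4 promoters are printed, being the 250 bases before the RefSeq start in GRCm38.p6. Capitals mark each match, on either strand, to GAAA followed after any 2 bases by a second GAAA, the core of the site that interferon-induced transcription factors recognise; overlapping matches run together. Isg15 is shown for the type I list and lies at chr4:156200819-156201068 on the minus strand. Ifit3 is at chr19:34583279-34583528 on the plus strand. Irgm1, an interferon-gamma-induced GTPase that was lower at day 12, is at chr11:48871421-48871670 on the minus strand. Cxcl10, which rose while the median of its list was below 0, is at chr5:92348890-92349139 on the minus strand.
Isg15: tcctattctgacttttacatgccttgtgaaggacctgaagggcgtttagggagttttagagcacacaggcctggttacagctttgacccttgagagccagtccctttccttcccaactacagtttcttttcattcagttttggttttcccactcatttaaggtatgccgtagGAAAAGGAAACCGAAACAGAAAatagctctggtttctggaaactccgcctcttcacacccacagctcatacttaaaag
Ifit3: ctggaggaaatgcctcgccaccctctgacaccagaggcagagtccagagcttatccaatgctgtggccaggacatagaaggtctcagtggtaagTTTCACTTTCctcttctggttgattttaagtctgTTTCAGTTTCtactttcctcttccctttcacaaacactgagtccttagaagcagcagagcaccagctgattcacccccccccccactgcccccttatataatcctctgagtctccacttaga
Irgm1: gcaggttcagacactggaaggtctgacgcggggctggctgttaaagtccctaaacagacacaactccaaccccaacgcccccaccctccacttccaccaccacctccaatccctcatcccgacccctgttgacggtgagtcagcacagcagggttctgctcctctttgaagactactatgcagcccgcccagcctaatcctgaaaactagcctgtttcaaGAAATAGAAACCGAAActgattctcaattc
Cxcl10: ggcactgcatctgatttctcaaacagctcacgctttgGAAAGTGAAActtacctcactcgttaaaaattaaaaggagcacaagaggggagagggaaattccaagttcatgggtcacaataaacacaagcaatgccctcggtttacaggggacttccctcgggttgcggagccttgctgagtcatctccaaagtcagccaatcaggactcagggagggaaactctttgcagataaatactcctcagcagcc
The 3 matches of Isg15 overlap, 66 to 78 bases before the start, and the 2 of Ifit3 lie 122 to 156 bases before it. The 2 of Irgm1 overlap at 24 to 30 bases, and the 1 of Cxcl10 lies 213 bases before the start. The motif was in 821 of 27025 promoters (3.04%), in 11 of 23 type I interferon genes with a promoter (47.8%) and in 13 of 22 interferon-gamma genes (59.1%). It was in 1 of 10 MHC class II genes and in 0 of 20 cell cycle genes. These are matches of letters in these windows and not measured binding.

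The MHC class II genes differed little between genotypes. For MHC class II, 1 of 14 genes was at least 1.5-fold higher and 1 lower in knockout at day 9, and the list's median log2 ratio was -0.26 (-0.08 without the 4 groups). At day 12, 2 were higher and 0 lower, with a median of 0.24 (0.20 without the 4 groups). H2-Aa was 0.732-fold at day 9 (0.713 to 0.751) and 1.23-fold at day 12 (1.21 to 1.25), in opposite directions, and did not pass over both days (edgeR adjusted p = 0.966). Ciita, the master regulator of these genes, was at 137 and 85.1 CPM at day 9, against 134 and 94.3 CPM at day 12, below wild-type on both days, and did not pass either (adjusted p = 0.492). Lgmn, the lysosomal protease legumain, was the gene of the list that rose. It was at 46.2, 139, 52.5 and 123 CPM and rose by 1.38 (SE 0.20, edgeR quasi-likelihood test, adjusted p = 0.0364), but the adjusted p was 0.202 without the 4 groups. Its T cell level was 9.18, 66.2, 40.5 and 38.0 CPM.

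The MHC class I list had knockout medians below 0 on both days, -0.41 at day 9 and -0.38 at day 12 (-0.54 and -0.34 without the 4 groups). Of 21 genes, 7 were at least 1.5-fold lower at day 9 and 1 at day 12, none was higher, and none passed the test. Leaving out the 4 groups, 9 were lower at day 9 and 2 at day 12. Over all measured genes of the members, 12.8% and 9.97% were lower. B2m, the light chain of class I, was at 6024, 4482, 5212 and 4585 CPM. Psmb9, a subunit of the immunoproteasome that cuts peptides for class I, was at 600, 360, 530 and 369 CPM (adjusted p = 0.398). H2-Q7, a class I gene of a family with near-identical members, was at 317, 102, 147 and 105 CPM and is uncertain for that reason.

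No costimulatory gene was called between genotypes. Of 15 genes, 6 were at least 1.5-fold higher and 1 lower in knockout at day 9 (median log2 ratio 0.40, and 0.26 without the 4 groups), and 5 were higher and 0 lower at day 12 (0.42). Cd86, a ligand of CD28, was at 77.1, 105, 51.3 and 68.5 CPM (edgeR adjusted p = 0.674). Cd274, which encodes PD-L1, was at 13.9, 27.6, 20.6 and 32.8 CPM, the first value from 9 UMIs, and did not pass (adjusted p = 0.579). Cd40 was at 97.1, 84.7, 68.4 and 99.2 CPM, in opposite directions at the 2 days.

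The maturation genes measured, which the rule touches because barcodes with both Ccr7 and Fscn1 were left out, were at least 1.5-fold higher in knockout in 6 of 15 at day 9 and 11 of 16 at day 12. None of 15 was at least 1.5-fold lower at day 9, and 1 of 16 was at day 12. The medians were 0.19 and 0.63, and 0.88 and 0.55 without the 4 groups. Relb, a transcription factor of dendritic cell maturation, was at 38.5, 56.8, 38.9 and 58.7 CPM. Marcksl1, an actin-binding protein of maturing dendritic cells, was at 33.9, 107, 71.5 and 138 CPM (edgeR adjusted p = 0.0898). Il4i1, an amino acid oxidase, was at 35.4, 37.4, 29.1 and 107 CPM. None of the 16 genes tested passed.

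Division genes were lower in knockout members on both days. The cell cycle list had 13 of 18 measured members lower by at least 1.5-fold at day 9, and 18 of 24 at day 12. These were 7 of 17 and 18 of 24 without the 4 groups. None was higher at either day. The medians were -0.91 and -1.15, and -0.55 and -1.07 without the 4 groups. Birc5, a regulator of cell division, was at 33.9, 12.8, 75.4 and 23.1 CPM, and the knockout effect had an adjusted p of 0.0584 in edgeR's quasi-likelihood test. Top2a, the topoisomerase of dividing cells, was at 29.3, 14.4, 76.5 and 32.8 CPM (adjusted p = 0.206). No gene of this list passed the test. The share of members with at least 3 UMIs of 6 division genes was 5% (3 of 60, interval 1.04% to 13.9%), 2.63% (6 of 228, 0.972% to 5.64%), 9.28% (22 of 237, 5.91% to 13.7%) and 3.73% (5 of 134, 1.22% to 8.49%). The intervals of the genotypes overlapped on both days. In cDC1 these shares were 16.2%, 12.2%, 30.1% and 26.6%.

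**Figure D4:**
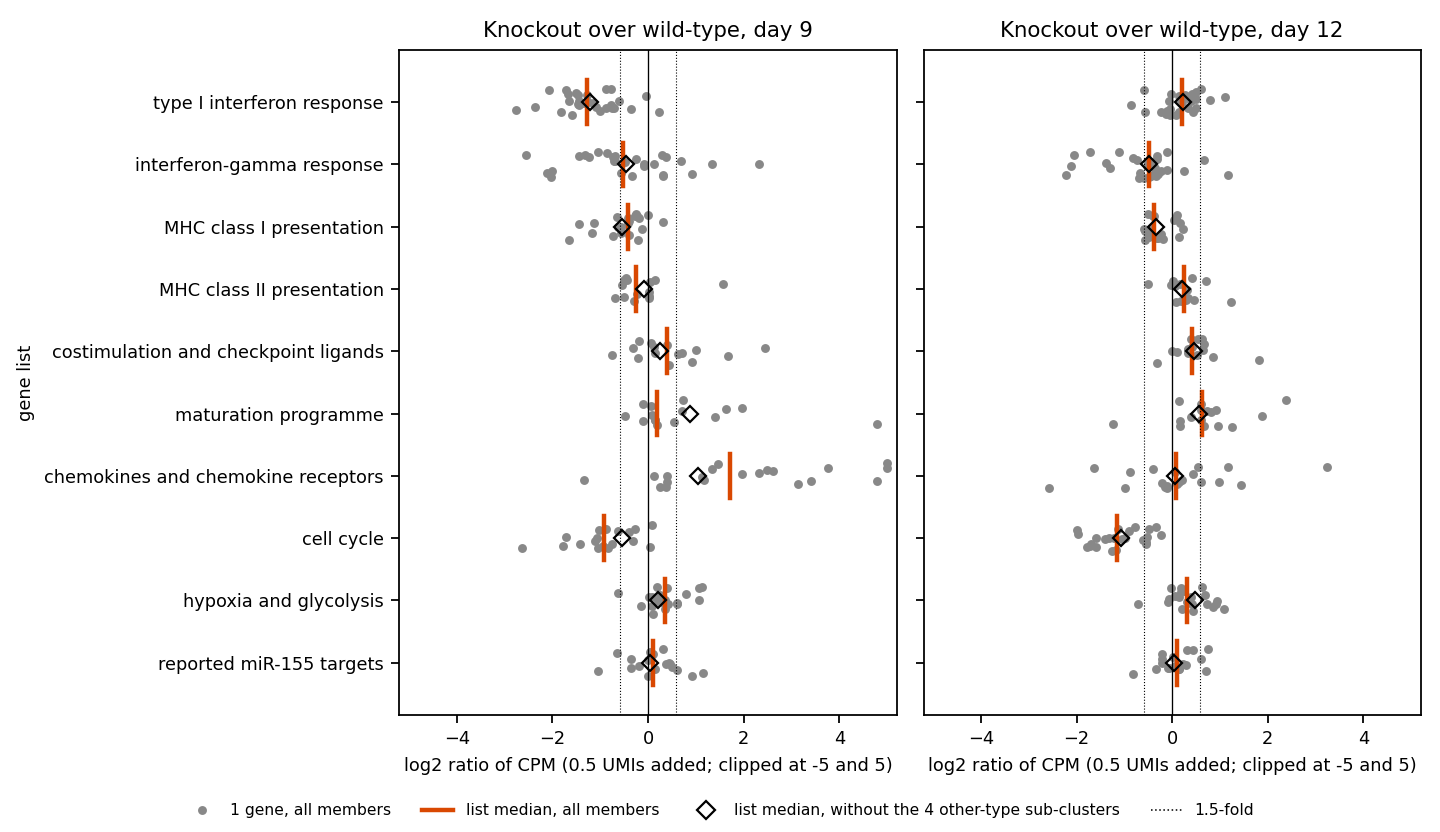
Log2 ratio of knockout over wild-type CPM for each measured gene of 10 lists (grey points) at day 9 (left) and day 12 (right), with list medians (orange lines), medians without the 4 groups (diamonds) and 1.5-fold limits (dotted). Type I interferon genes lie to the left at day 9 with a median of -1.28 and around 0.20 at day 12, the interferon-gamma and cell cycle medians lie left of 0 on both days, and chemokines lie to the right at day 9 only, with a median of 1.72.

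Among identity and pattern-recognition genes, Clec4n was the one called between genotypes. Clec4n, the lectin Dectin-2 that recognises fungal sugars, was at 15.4, 139, 90.5 and 248 CPM. It rose by 1.97 (SE 0.31, edgeR quasi-likelihood test, adjusted p = 0.0403, and 0.0561 without the 4 groups), and was at 0.962, 70.2, 11.2 and 22.9 CPM in T cells. Of the 22 identity genes, 3 were at least 1.5-fold higher and 5 lower at day 9, and 4 and 2 at day 12. These counts were 4 and 2, and 2 and 2, without the 4 groups. Clec10a was 0.555-fold at day 9 (0.504 to 0.612) and 1.25-fold at day 12 (1.15 to 1.35), in opposite directions. Irf8, a transcription factor that cDC1 and plasmacytoid dendritic cells need, was at 183, 658, 155 and 299 CPM in all members and at 111, 237, 113 and 205 CPM without the 4 groups, and did not pass (edgeR adjusted p = 0.0584 and 0.118). Irf4, Klf4, Zeb2 and Spi1 did not pass either.

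Genes reported elsewhere as targets of miR-155 showed no common shift. Of 19 measured at day 9, 3 were at least 1.5-fold higher and 2 lower in knockout, and of 18 at day 12, 3 and 1. The medians were 0.11 and 0.10 (0.04 and 0.04 without the 4 groups), and none of the 19 tested passed. Socs1, an inhibitor of cytokine signalling, was at 89.4, 117, 112 and 63.6 CPM. Inpp5d, the lipid phosphatase SHIP1, was at 105, 51.0, 60.2 and 51.7 CPM. Spi1, the myeloid transcription factor PU.1, lay between 703 and 810 CPM in all 4 libraries.

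Among the other genes, Fabp5 and Fgl2 passed the test both in all members and without the 4 groups. Fabp5, a carrier of fatty acids, was at 33.9, 206, 141 and 511 CPM, and at 92.0, 150, 129 and 229 CPM in T cells. It rose by 2.13 (SE 0.22, edgeR quasi-likelihood test, adjusted p = 0.00711, and 0.0108 without the 4 groups). In knockout day 12 a single member held 187 of its 732 UMIs, and 91 of 134 members had at least 1. Fgl2, a secreted immunoregulatory protein, was at 435, 175, 280 and 105 CPM, and at 108, 51.8, 80.6 and 76.0 CPM in T cells. It fell by 1.37 (SE 0.18, edgeR quasi-likelihood test, adjusted p = 0.0318, and 0.0366 without the 4 groups).

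Hspb1, Ly6d, Ccr9 and Atp1b1, which were called higher, rested on groups of other cell types or on single barcodes. Of the 482 UMIs of Hspb1 in knockout day 9, 481 came from 1 barcode. Ly6d had 431 UMIs in knockout day 9, and was at 177 CPM in all members and 11.4 CPM without the 4 groups. Of the 519 UMIs of Gzmc, called lower, in wild-type day 12, 418 came from 1 barcode. Some calls were seen in cells other than the members too. Rpl29, a ribosomal protein gene named after its values were seen, was at 1537, 95.4, 1724 and 155 CPM in members and at 2304, 139, 2362 and 235 CPM in T cells, while its near-identical copy Gm10709 was at 15.4, 851, 15.5 and 952 CPM in members, so both are uncertain. Wdfy1, an endosomal protein, was at 41.6, 7.40, 29.9 and 7.68 CPM in members and at 37.5, 6.57, 34.0 and 5.90 CPM in T cells. Its call in members was lost without the 4 groups (edgeR quasi-likelihood test, adjusted p = 0.0577).

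Between days, genes of alternative activation were higher at day 12 and several interferon-gamma genes were lower, in both genotypes. The day and genotype contrasts are made from the same 4 libraries and are not independent of each other. edgeR's quasi-likelihood test of a day effect common to both genotypes called 20 genes higher at day 12 (0.244% of 8181) and 24 lower (0.293%), and 1001 genes had an unadjusted p under 0.05. It called 32 higher and 18 lower without the 4 groups. Of the genes measured, 12.4% were at least 1.5-fold higher and 15.9% lower at day 12 in wild-type, and 9.69% and 19.2% in knockout. The median over all genes was -0.02 and -0.11.

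Of the alternative-activation genes, 7 of 12 measured were at least 1.5-fold higher at day 12 and 2 lower in wild-type, and 8 of 15 were higher and 3 lower in knockout. The medians were 1.08 and 0.82, and 0.90 and 1.45 without the 4 groups, so the order of the genotypes turned. Of the 15 genes tested, Retnla, Mrc1 and Mgl2 rose and Chil3 fell. Retnla, a secreted protein of interleukin-4-exposed myeloid cells, was at 1.54 and 0.411 CPM at day 9, from 1 UMI each, and at 116 and 62.9 CPM at day 12. It rose by 6.74 on the log2 scale (SE 0.43, edgeR quasi-likelihood test, adjusted p = 0.000462, and 0.000152 without the 4 groups). In wild-type day 12 a single member held 100 of 299 UMIs, and 51 of 237 members had at least 1. T cells of the same libraries had 4.74, 0.188, 35.4 and 85.8 CPM, and macrophages 330, 3.25, 1399 and 2871 CPM, so Retnla was below its T cell level in the members of wild-type day 9 and knockout day 12.

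The mannose receptor Mrc1 was at 69.4, 35.4, 163 and 166 CPM and rose by 1.83 (SE 0.27, edgeR quasi-likelihood test, adjusted p = 0.0235, and 0.0343 without the 4 groups). Its T cell level was 1.11, 6.19, 8.37 and 20.3 CPM. Mgl2 rose by 1.68 (SE 0.29, adjusted p = 0.0452, and 0.0470 without the 4 groups) between the levels given above. Fcrls, an Fc receptor-like protein, was at 6.16, 1.23, 56.7 and 46.8 CPM and rose by 4.37 (SE 0.46, adjusted p = 0.00857). Ccl8, a chemokine for monocytes, was at 0, 0.823, 16.3 and 32.1 CPM, against 0.518, 1.69, 17.6 and 29.5 CPM in T cells, so its level in members was above that in T cells in knockout day 12 only. It rose (edgeR quasi-likelihood test, adjusted p = 0.00857). The knockout ratio between days was 39.1 (10.2 to 332), from 2 and 46 UMIs, and no fold is given for wild-type, where day 9 had 0 UMIs.

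Flt3 was lower at day 12 in both genotypes, from 55.5 to 10.5 CPM in wild-type and from 64.2 to 30.0 CPM in knockout. It did not pass in all members (edgeR quasi-likelihood test, log2 change -1.58, adjusted p = 0.0828). Without the 4 groups it was at 62.5, 53.4, 10.4 and 12.9 CPM and fell by 2.31 (adjusted p = 0.0105). Cd7, a surface glycoprotein on part of the cDC2 list, was at 257, 367, 99.5 and 182 CPM and fell by 1.13 (SE 0.20, adjusted p = 0.0492, and 0.0248 without the 4 groups). The 22 identity genes had median log2 ratios between days of -0.29 in wild-type and 0.15 in knockout. Leaving out the 4 groups gave -0.33 and -0.10, so the knockout median changed its sign. Mgl2 rose and Cd7 fell within this list.

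Of the interferon-gamma list, 11 of 29 measured genes were at least 1.5-fold lower and 0 higher at day 12 in wild-type, and 14 of 28 were lower and 3 higher in knockout. The medians were -0.51 and -0.68. Irgm1, whose promoter is printed above, was at 316, 197, 96.4 and 74.7 CPM, and at 76.6, 106, 44.1 and 30.1 CPM in T cells. It fell by 1.5 (SE 0.20, edgeR quasi-likelihood test, adjusted p = 0.0144, and 0.00881 without the 4 groups). Serpina3g, a protease inhibitor, was at 179, 224, 92.9 and 61.5 CPM and fell by 1.35 (SE 0.23, adjusted p = 0.0453). The type I list had medians of opposite sign in the genotypes: 17 of 29 genes were at least 1.5-fold lower in wild-type (median -0.72), and 15 of 29 were at least 1.5-fold higher in knockout (median 0.61). That difference was not tested.

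Outside the lists, Serinc3 and Tagap were among the genes that fell. Serinc3, a membrane protein that restricts viruses, was at 176, 226, 46.2 and 46.1 CPM and fell by 2.05 (SE 0.20, edgeR quasi-likelihood test, adjusted p = 0.00581, and 0.0122 without the 4 groups). T cells had it at 263, 182, 74.5 and 86.5 CPM. Tagap, a T cell activation GTPase-activating protein, was at 52.4, 94.2, 11.7 and 9.78 CPM and fell by 2.64 (SE 0.31, adjusted p = 0.00857). The monocyte genes Chil3, Hp and Mgst1 also fell, and each was at most 6.11 CPM in every library without the 4 groups. Lmna, a nuclear lamin, was at 33.9, 32.1, 109 and 118 CPM and rose by 1.86 (SE 0.22, adjusted p = 0.00857).

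**Figure D5:**
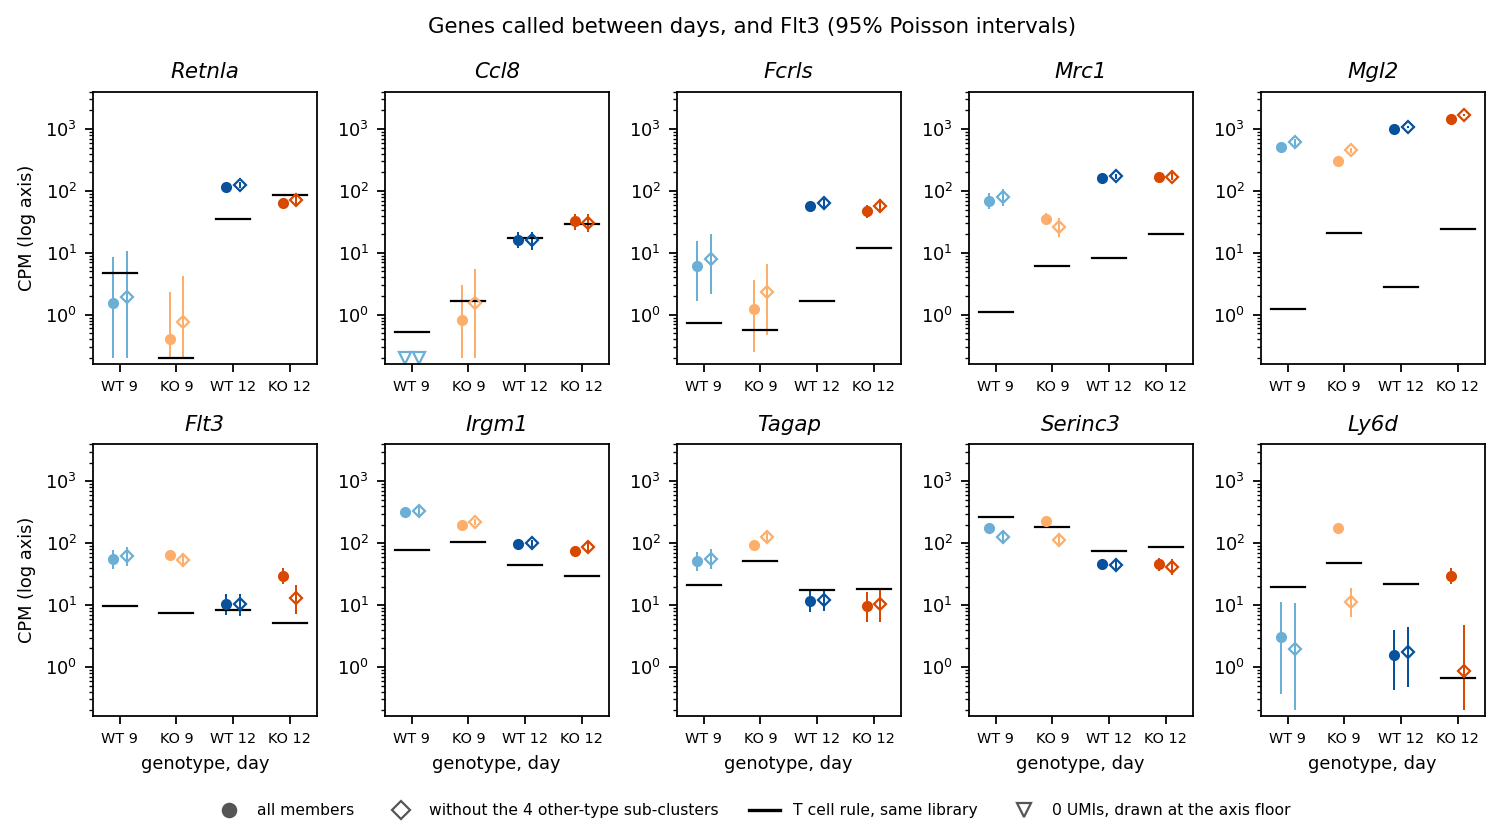
Levels in CPM on a log axis of 9 genes called between days and of Flt3, by library, with 95% Poisson intervals; symbols as in the plot of genes called between genotypes, with triangles for 0 UMIs. Retnla, Ccl8, Fcrls, Mrc1 and Mgl2 are higher at day 12 in both genotypes, Irgm1, Tagap and Serinc3 are lower, and black T cell lines reach the members for Retnla and Ccl8.

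Compared with cDC1 of the same libraries, the knockout effect in members differed for 6 of 7920 genes (0.0758%; edgeR quasi-likelihood test of the interaction, 8 library sums; 411 genes at an unadjusted p under 0.05). Ifitm1, an interferon-induced membrane protein, was at 301, 885, 546 and 539 CPM in members. In cDC1 it was at 2.84, 62.7, 30.7 and 415 CPM, the first value from 3 UMIs. The knockout effect was lower by 3.71 on the log2 scale in members (adjusted p = 3.97e-06). For Ccl17 the effect was larger in members by 3.09 (adjusted p = 0.00385 in the same test), with cDC1 at 26.5, 128, 24.7 and 2.72 CPM, the last value from 3 UMIs. For Irf8 it was larger by 1.60 (adjusted p = 0.00385), with cDC1 at 2651, 2003, 2598 and 2372 CPM, but the adjusted p was 0.0607 without the 4 groups. No interferon-gamma, MHC class II or cell cycle gene differed in this test. The type I list was lower at day 9 in cDC1 too, at least 1.5-fold in 15 of 21 genes (median -1.27), in monocytes in 25 of 29 (median -1.0) and in macrophages in 28 of 28 (median -2.11). In T cells its median was -0.04.

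Compared with monocytes, the knockout effect differed for 54 of 9123 genes (0.592%; 578 at an unadjusted p under 0.05). For Cxcl10 it was larger in members by 1.90 (edgeR quasi-likelihood test of the interaction, adjusted p = 1.64e-14), with monocytes at 982, 1197, 981 and 633 CPM. For Il1b it was larger by 2.05 (adjusted p = 1.5e-09), with monocytes at 302, 602, 254 and 326 CPM. Monocytes were above the members in wild-type for both genes. The class II genes also differed. Cd74, the invariant chain, was at 30387, 21321, 27002 and 35932 CPM in members and at 16317, 7067, 23912 and 19937 CPM in monocytes, a difference of 0.67 (adjusted p = 2.83e-13). H2-Aa differed by 0.68 (adjusted p = 3.80e-10). For Ccl5 the effect was lower in members by 2.38 (adjusted p = 4.17e-12), and for Retnla by 2.90 (adjusted p = 2.04e-11). Both classes come from the same 4 libraries, and what they share of a library's RNA is in both. The fits against cDC1 and monocytes also left 1 residual degree of freedom. Their small p-values rest on variances shared across genes (prior degrees of freedom 13.4 for cDC1 and 53.94 for monocytes) and not on replicates.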

How the data were processed

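Live CD45-positive cells of 4 groups, 1 library each, were profiled by droplet-based 3' single-cell RNA-seq. The deposited values are UMI counts per gene and barcode, made with Cell Ranger 2.0.2 on mm10, per the submitters' processing notes. Further settings are not given in the sources used here.

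Counts over 27998 gene rows were read as deposited. Library totals were 21448114, 33902064, 29662903 and 18783490 UMIs for wild-type day 9, knockout day 9, wild-type day 12 and knockout day 12. Member counts were summed per library and tested with edgeR 4.0.16 (R 4.3.3; TMM, filterByExpr, glmQLFit and glmQLFTest, day and genotype as terms, Benjamini-Hochberg at 0.05). DESeq2 1.42.0 was an alternative. With 1 pooled library a group, no fit has replicates. In the 4-sum fits the 1 residual degree of freedom is the difference of the genotype effect between the 2 days, which may be technical. The p-values are set against that difference, moderated over genes, so an effect at 1 day only adds to the error. Ratios at single days have exact conditional intervals, shares Clopper-Pearson and levels Poisson intervals, all at 95% and for counting error only. Sub-clusters came from scanpy 1.11.5 (2000 variable genes, 20 components, 15 neighbours, resolution 1). Members with high doublet scores (0.8% per 1000 barcodes) were kept, and leaving them out was an alternative. Comparison classes were set by marker counts. The cDC1 had at least 2 UMIs of Xcr1 and Clec9a, macrophages at least 20 of C1qa, C1qb and C1qc, and T cells at least 3 of CD3 genes. Monocytes had at least 2 of Ly6c2 and 5 of Lyz2, and none of Flt3 or of the NK cell genes Ncr1 and Klrb1c. The cDC1, monocytes and macrophages had no Cd209a. The member rule set no limit on NK cell genes.

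On simulated data with the same 8181 genes, 75 of 200 genes changed 2-fold and 173 of 200 changed 4-fold were recovered, with 1 and 10 false calls. The simulation gave every gene the same fixed spread and no day effect. Its rates therefore need not hold for these data, where single barcodes carried some genes.

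The members and the 29 gene lists were chosen with earlier results of these data known. The sub-cluster limit and the sets without 4 sub-clusters or with at least 10 Cd209a UMIs were chosen after seeing the data. Any list gene could be named. Outside the lists, genes were named if they were at least 1.5-fold different in the same direction in both pairs with at least 20 UMIs over each (the first 12 per direction), or were among the first 5 per direction by p of each fit. Chosen-by, mitochondrial, ribosomal protein, Gm and Rik genes were left out, with Rpl29 and Gm10709 as stated exceptions. Alternatives changed the Cd209a minimum, the lineage genes required, the mitochondrial limit, doublets, normalization, the count filter and the tool. A further planned choice of members is not reported here.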

Additional observations from a re-analysis of the deposited data

Results flagged for a closer look

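Each result here is a difference between cell classes in the knockout effect over both days, from edgeR's quasi-likelihood test of the interaction, given as log2 in members minus log2 in the other class. Against cDC1, the knockout effect was lower in members for Ifitm1 (-3.71), Wfdc17 (-1.93) and Ifitm2 (-0.99), and higher for Ccl17 (3.09), Gzmb (2.78) and Irf8 (1.60). Ifitm1, Ccl17 and Gzmb also passed without the 4 groups led by other cell types, with adjusted p = 0.00272, 0.0227 and 0.0227. Wfdc17 (0.135), Ifitm2 (0.387) and Irf8 (0.0607) did not. Wfdc17 was at 1033, 753, 902 and 1035 CPM in members and at 63.4, 314, 222 and 592 CPM in cDC1. Gzmb was at 50.9, 16.9, 94.4 and 46.8 CPM in members and at 56.8, 0, 219 and 18.1 CPM in cDC1, so its fitted fold depends on a library at 0.

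Against monocytes, the effect was higher in members for Cxcl10 (1.90), Ly6c2 (1.10), H2-Ab1 (0.71), H2-Aa (0.68) and Cd74 (0.67). It was lower for Gzmc (-4.04), Ube2c (-3.31), Retnla (-2.90), Ccl5 (-2.38) and Ear2 (-1.81). The monocyte class was chosen on Ly6c2, and the Ly6c2 difference had an adjusted p of 0.908 without the 4 groups. Gzmc did not pass there either (adjusted p = 0.141), and a single member held 418 of its 519 UMIs in wild-type day 12. Monocytes were chosen to lack the NK cell genes Ncr1 and Klrb1c, and the members were not. The part of this in the Gzmc and Ccl5 differences was not tested. Ear2 was at 260, 46.9, 285 and 255 CPM in members and at 59.4, 68.8, 35.8 and 70.7 CPM in monocytes, so the members of knockout day 9 stood apart.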

How the results depend on the processing

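Of 108 alternative values, 62 stayed within the limit set for each kind of value, 45 moved beyond it and 1 reversed. The limit was a factor of 1.5 for counts of genes, the 95% counting interval of the main ratio for shares, and the 95% counting interval of the main median for lists. The calls between genotypes, 15 higher and 8 lower in edgeR's test, became 48 and 24 with at least 1 Cd209a UMI, 4 and 3 with at least 3, and 42 and 23 with at least 10. They became 3 and 1 at a mitochondrial limit of 5%, 49 and 24 without high doublet scores, and 8 and 3 without the 4 groups led by other cell types. With relative log expression (RLE) scaling in place of TMM in edgeR they were 5 and 1, and with no count filter 98 and 69. Requiring Flt3 or Zbtb46 gave 23 higher and DESeq2 gave 4 lower. The day calls, 20 higher and 24 lower, became 90 and 117 with at least 1 Cd209a UMI, and 75 and 98 with at least 10. They became 99 and 135 without high doublet scores, 8 and 3 with RLE in place of TMM, and 147 and 193 with no count filter. At the 5% mitochondrial limit edgeR called 1 higher and 0 lower, with 901 genes at an unadjusted p under 0.05. Without the 4 groups 32 were higher. Lower calls were 10 with Flt3 or Zbtb46 and 11 with DESeq2. The 6 differences from cDC1 became 49 with no filter and 1 with DESeq2, and the 54 from monocytes became 5 with DESeq2. The cause of these shifts was not tested.

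The day 9 share ratio of 1.81 reversed to 0.964 among barcodes with at most 1 CD3 UMI, and was 1.18 without the 4 groups. The day 12 ratio of 1.02 was 0.755 among dendritic cells. The interferon-gamma median was -0.34 at day 9 with at least 10 Cd209a UMIs and also -0.34 over genes with at least 100 UMIs. At day 12 it was -0.18 with Flt3 or Zbtb46 required. The MHC class II median at day 9 was -0.14 with at least 3 Cd209a UMIs and -0.0826 without the 4 groups. At day 12 it was 0.13 with at least 1 Cd209a UMI and 0.32 with Flt3 or Zbtb46. The sets without the 4 groups and with at least 10 Cd209a UMIs, and the share among dendritic cells, were chosen after seeing the data.

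Leaving out a library leaves a fit with no residual degrees of freedom, whose value is the ratio of the other day; those ratios are in the report. No paired analysis was possible because each group is 1 library and the labels give no shared replicate numbers. The 60 members of wild-type day 9, with 648873 UMIs, limit every day 9 comparison.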
